A study of Caenorhabditis elegans with 2 samples.

Results

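Chromosome X of Caenorhabditis elegans carries 276 of the 612 nuclear tRNA genes in the Ensembl annotation of the WBcel235 assembly, which is ce11. All 276 were taken, whatever their signal. A tRNA gene was counted as bound when the summit of a peak of the authors' thresholded list over both replicates, the main list, lay inside the gene or within 100 bases of it. By this rule 120 of the 276 genes were bound.

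The data are chromatin immunoprecipitation followed by sequencing (ChIP-seq) of the protein of Y105C5A.15 in whole L4 larvae, in 2 biological replicates of 1 group. The worms were of strain OP773, which carries the transgene wgIs773: Y105C5A.15 tagged with TY1, EGFP and 3xFLAG, together with unc-119(+), in the unc-119(tm4063) mutant background. Larvae were taken at 48 hours after growth from L1 larvae that had been starved following bleaching, chromatin was sonicated, and an antibody against GFP was used. Every sample analysed here carries the tagged protein, so antibody signal that does not depend on the tag cannot be told apart from binding, and whole larvae mix all tissues. The tagged copy is an added transgene, and the labels do not say whether its level is that of the native gene.

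tRNAs are the adaptors that carry amino acids to the ribosome and read codons with their anticodon. Their genes are transcribed by RNA polymerase III from a promoter inside the gene: the factor TFIIIC binds the A box near the start and the B box further in, and brings TFIIIB to the DNA just before the gene. Transcription ends at a run of T after the gene. In worms many tRNA genes are exact copies of each other, and several of those for tryptophan on X are known from mutant alleles that read through amber stop codons.

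The genes below carry the results that follow. The first 4 are strongly bound genes of different amino acids and lengths, given from the first to the last base of the gene (ce11): C04A11.t1 for leucine (chrX:13665555-13665673, plus strand), C33G3.t2 for lysine (chrX:14063946-14064018, minus strand), C02B4.t2 for tyrosine (chrX:12665228-12665311, plus strand) and T07H6.t2 for alanine (chrX:6292278-6292349, minus strand). Capitals mark the letters that match the B box pattern GTTCNANNC. C04A11.t1 and C02B4.t2 are annotated with 2 exons, so their sequences include a short intron.
C04A11.t1: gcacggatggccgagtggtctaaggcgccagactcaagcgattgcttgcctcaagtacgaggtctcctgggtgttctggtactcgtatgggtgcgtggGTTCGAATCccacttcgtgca
C33G3.t2: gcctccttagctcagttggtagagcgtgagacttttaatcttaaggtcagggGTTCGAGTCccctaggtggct
C02B4.t2: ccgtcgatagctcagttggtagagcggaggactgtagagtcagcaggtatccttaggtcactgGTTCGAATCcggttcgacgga
T07H6.t2: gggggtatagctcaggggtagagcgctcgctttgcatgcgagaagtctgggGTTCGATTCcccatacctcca

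The next 5 genes show identical copies with unlike calls, each printed with the 40 bases before it. ZK563.t1 (chrX:3371422-3371533, minus strand) was bound and F25F6.t2 (chrX:4444974-4445085, plus strand) was not, and both are the threonine tRNA with anticodon AGU. C16B8.t1 (chrX:3969516-3969627, plus strand) and ZK899.t1 (chrX:9467729-9467840, minus strand) were bound and F46G11.t2 (chrX:5801211-5801322, minus strand) was not, and all are the proline tRNA with anticodon UGG. The call did not follow the signal in the proline genes: F46G11.t2 had a ranked signal of 96.2, above 85.0 at C16B8.t1 and 51.7 at ZK899.t1. The gene letters are the same within each family, and the letters before the gene differ. Whether those letters had a part in the calls was not tested. Capitals again mark the B box match.
ZK563.t1: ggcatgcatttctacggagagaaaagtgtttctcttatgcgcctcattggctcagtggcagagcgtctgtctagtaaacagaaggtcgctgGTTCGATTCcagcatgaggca
F25F6.t2: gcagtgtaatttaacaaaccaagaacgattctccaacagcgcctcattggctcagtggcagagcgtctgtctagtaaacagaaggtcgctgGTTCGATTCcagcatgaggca
C16B8.t1: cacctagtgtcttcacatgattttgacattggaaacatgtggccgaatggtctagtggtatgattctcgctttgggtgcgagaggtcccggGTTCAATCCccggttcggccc
ZK899.t1: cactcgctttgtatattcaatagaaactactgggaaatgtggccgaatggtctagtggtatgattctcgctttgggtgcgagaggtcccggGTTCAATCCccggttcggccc
F46G11.t2: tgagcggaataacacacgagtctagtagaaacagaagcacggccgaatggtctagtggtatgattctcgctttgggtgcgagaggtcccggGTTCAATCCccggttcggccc

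The 120 bound genes were 43.5% of the tRNA genes of X (exact Clopper-Pearson 95% interval 37.5 to 49.6%). The same rule found a summit at 2.53% of all 46890 nuclear genes and at 2.71% of the 5746 other genes of X. On the autosomes 135 of 336 tRNA genes were bound, or 40.2% (95% interval 34.9 to 45.6%). The intervals of X and the autosomes overlap. This and the other differences between groups of genes given below were not tested. Single autosomes ran from 30.8% on V (24 of 78) to 45.1% on IV (32 of 71). Intervals here cover counting error only, and tRNA genes are not independent of each other, because neighbours can share a peak and many have the same sequence. The 120 genes lay on 114 peaks, since 6 peaks each served a pair of neighbouring genes.

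The strength of a peak is given by the authors' signal value, on a scale not given in the sources used here. This value compares peaks within a list and is not a number of reads. Over the 120 bound genes the signal in the main list had a median of 77.6, with quartiles at 65.2 and 95.6 and a range from 42.1 to 174.7. All 1046 peaks of the main list had a median of 63.5, and the 135 bound autosomal tRNA genes one of 74.6. The authors also deposited ranked lists of candidate peaks, before any threshold. Of those over both replicates, the one that contains every main-list peak was used. In it, 95 of the 156 unbound genes had a peak summit within 100 bases. Their signal had a median of 36.4 and ran from 11.3 to 96.2. The remaining 61 had none in this list, though some of them were named by other lists of the authors. Those 95 are 60.9% of the unbound genes. Ranked peaks are common, and 39.7% of the 979 other genes of X no longer than the longest tRNA gene had one within the same distance. Of all 276 tRNA genes, 77.9% had one. The plot of signal along X shows the bound genes overlapping the unbound ones between 42.1 and 96.2.

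**Figure D1:**
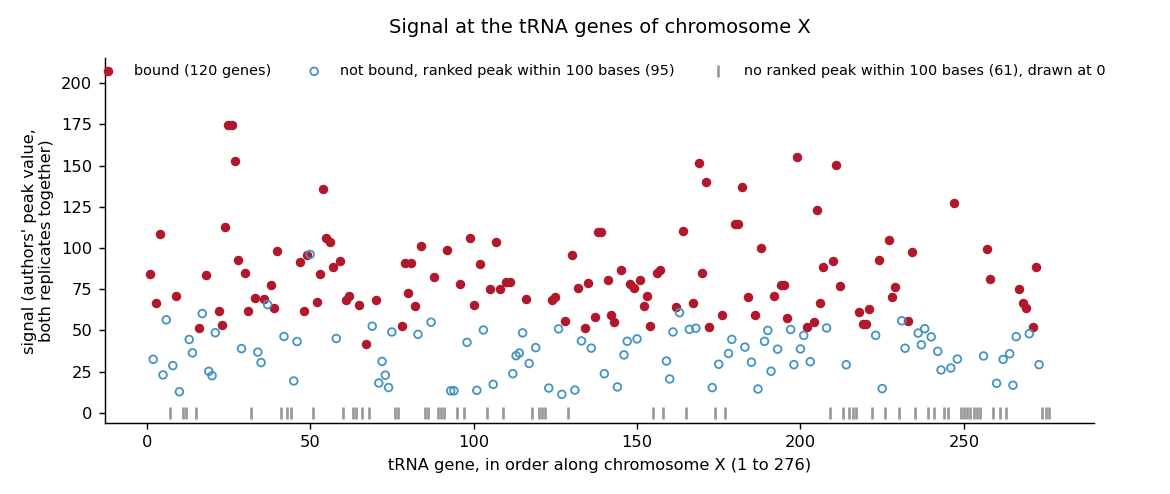
Signal of the authors' peak (vertical axis, no unit given) at each of the 276 tRNA genes, in their order along X (horizontal axis). Filled points are the 120 bound genes (main list) and open points the 95 unbound genes with a ranked peak. Ticks at 0 are the 61 genes with no peak in the ranked list used, and are not a measured signal. Bound genes occur along the whole chromosome, with signals from 42.1 to 174.7.

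The strongest peak stood between 2 divergent genes, M02F4.t1 for glycine and M02F4.t2 for glutamate. Its main-list signal was 174.7, and in the ranked lists of the single replicates M02F4.t1 had 102.9 in replicate 1 and 71.6 in replicate 2, with a mean of 87.2 ± 22.2 (SD, n = 2). The summit lay 23 bases before M02F4.t1 and 94 bases before M02F4.t2, and in replicate 2 no ranked summit lay within 100 bases of M02F4.t2. The call of M02F4.t2 thus rests on a peak nearer to its neighbour.

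C04A11.t1, which encodes a leucine tRNA with anticodon CAA, followed with 155.2. Its replicates lay close together, at 75.1 and 78.0 (mean 76.5 ± 2.09 SD, n = 2). Its exact sequence occurs once among the nuclear tRNA genes, and the other 2 genes of the anticodon CAA on X, F42F12.t1 and F02D10.t3, were not bound. ZK563.t1, in an intron of ZK563.2 on the opposite strand, had 152.8. Its replicates were further apart, at 54.9 and 90.2 (mean 72.5 ± 24.9 SD, n = 2). R01H5.t1, a threonine tRNA gene with anticodon UGU, had 151.6, with 73.6 and 74.8 in the replicates (mean 74.2 ± 0.85 SD, n = 2).

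C33G3.t2 for lysine had 150.4, with 48.5 in replicate 1 and 92.2 in replicate 2. The SD around their mean of 70.3, 30.9 (n = 2), was the largest SD among the 113 bound genes with a ranked peak in both replicates. C02B4.t2, a tyrosine tRNA gene in an intron of the nuclear receptor gene nhr-17, had 140.3, with 63.2 and 75.5. F17H10.t1, a glycine tRNA gene in an intron of snx-17, had 136.9, with 74.0 and 64.8. With 2 replicates, the order among these genes is not fixed: in replicate 1 alone ZK563.t1 and C33G3.t2 lay below all the others named here, and in replicate 2 alone they were the highest.

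At the lower end, the weakest bound genes were ZK154.t3 for glycine with 42.1, T26C11.t1 for glutamate with 51.4 and ZK899.t1 for proline with 51.7. ZK154.t3 had 24.4 and 26.4 in the replicates, and its summit lay beyond the end of the gene. The unbound genes with the highest ranked signal were F46G11.t2 for proline with 96.2, F25F6.t2 for threonine with 65.7 and C49F5.t1 for histidine with 60.8. All 3 had more signal than the weakest bound gene, and they differed from it in the irreproducible discovery rate (IDR), the expected share of peaks that do not repeat. The main list holds peaks with an IDR of at most 0.01, and the ranked peaks of F46G11.t2, F25F6.t2 and C49F5.t1 had 0.585, 0.0168 and 0.0178. The authors' conservative list, another list over both replicates, went the other way for F46G11.t2 and F25F6.t2. It named both of them and none of the 3 weakest bound genes. C49F5.t1 was not in it. F46G11.t2 had 28.5 in replicate 1 and 60.6 in replicate 2.

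The replicates were compared to ask how far the signal at single genes repeats. Of the 276 genes, 202 had a ranked peak in replicate 1 and 193 in replicate 2. At bound genes the median was 38.1 in replicate 1 (118 genes) and 37.8 in replicate 2 (115 genes), and at unbound genes 19.4 (84 genes) and 20.3 (78 genes). Both replicates thus had the higher median at the bound genes, but they had also helped to choose them, so no test was made. Over the 168 genes with a ranked peak in both, log2 signal had a Pearson r of 0.53 and a Spearman rho of 0.55. Within the 113 bound genes r was 0.36 and rho 0.38, and within the 55 unbound genes r was -0.17 and rho -0.18. The call was made on both replicates together, so r and rho within each group also reflect that choice. They do not measure how far signal repeats within a group. These values describe genes within the same 2 libraries, and a peak shared by neighbours enters more than once.

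**Figure D2:**
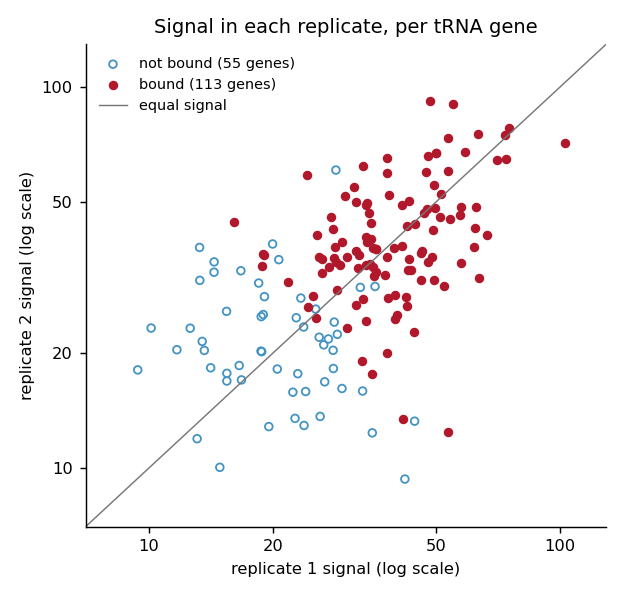
Signal of the authors' ranked peak at each tRNA gene of X in replicate 1 (horizontal) and replicate 2 (vertical), both on log axes, for the 168 genes with a peak in both. Filled points are the 113 bound genes and open points the 55 unbound genes; the line marks equal signal. Bound genes lie mostly at the upper right and scatter on both sides of the line.

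At a bound gene the higher replicate was a median of 1.28 times the lower, and it was more than 2 times the lower at 5 of 113. Replicate 1 was the higher at 52 genes and replicate 2 at 61. The largest ratio among bound genes, 4.32, was at F15G9.t2 for alanine in him-4, with 53.5 and 12.4. Even so, F15G9.t2 was in the thresholded list of each replicate alone, and its ranked peaks there had an IDR of 0.000647 and 0.000902. That gene shares its peak with F15G9.t1, which lies just before it on the same strand. ZK899.t1 for proline had 41.4 and 13.4, and H08J11.t4 for glutamine had 16.1 and 44.2. The single genes therefore moved in both directions between the replicates.

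The thresholded list of each replicate alone named fewer genes: 61 in replicate 1 and 52 in replicate 2, with 31 in both. Of the 82 genes in at least 1 of these lists, 74 were also in the main list. The other 46 of the 120 bound genes were in neither single list, so their call rests on the replicates combined. The authors' conservative list named 110 genes, 106 of them among the 120. Across these lists 131 genes were named at least once.

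Bound genes were spread over nearly all kinds of tRNA. The anticodon could be read from the gene for 271 of the 276, in 45 families of amino acid and anticodon, and 41 of these had at least 1 bound gene. The 4 without were alanine CGC, arginine CCG and proline CGG, each with a single gene on X, and arginine UCG with 6. The 3 genes annotated with no amino acid were not bound. Every standard amino acid was represented among the bound genes, since each of the 20 had from 1 to 12. With 43.5% of all 276 genes bound, families and amino acids with several genes would often hold a bound one.

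By amino acid, glycine had the most bound genes, with 12 of 20. Glutamate had 11 of 23, arginine 10 of 27 and lysine 10 of 18. Proline had 4 of 20 (95% interval 5.73 to 43.7%), threonine 4 of 14, methionine 2 of 8 and phenylalanine 1 of 6. Shares on X and the autosomes differed in both directions. Proline was bound in 20% on X and 40.9% on the autosomes, and threonine in 28.6% and 55%. Tyrosine was bound in 50% on X and 9.09% on the autosomes, asparagine in 66.7% and 21.4%, tryptophan in 60% and 28.6%, and glutamine in 40% and 16.7%. Methionine was bound in 25% in both. The intervals of single amino acids are wide, and that of proline overlaps that of X as a whole.

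Within an amino acid the anticodons could differ. All 3 genes of alanine UGC were bound, with signals of 135.6 at T07H6.t2, 109.5 at F15G9.t1 and 84.4 at T07H6.t1. T07H6.t2 had 70.4 and 64.5 in the replicates. Of the arginine genes, 3 of 4 with anticodon UCU were bound and none of the 6 with anticodon UCG (95% interval up to 45.9%), and 6 of 13 with ACG. The strongest arginine gene was F41D9.t4 in tbc-18, with 90.7 and replicate values of 34.0 and 49.7. The arginine UCG genes were not all without signal, since 4 of them had a ranked peak, the highest with 56.4 at F49E7.t3. Of the glutamate genes 6 of 8 with UUC and 5 of 15 with CUC were bound, and of the serine genes 4 of 5 with GCU and 2 of 8 with AGA.

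**Figure D3:**
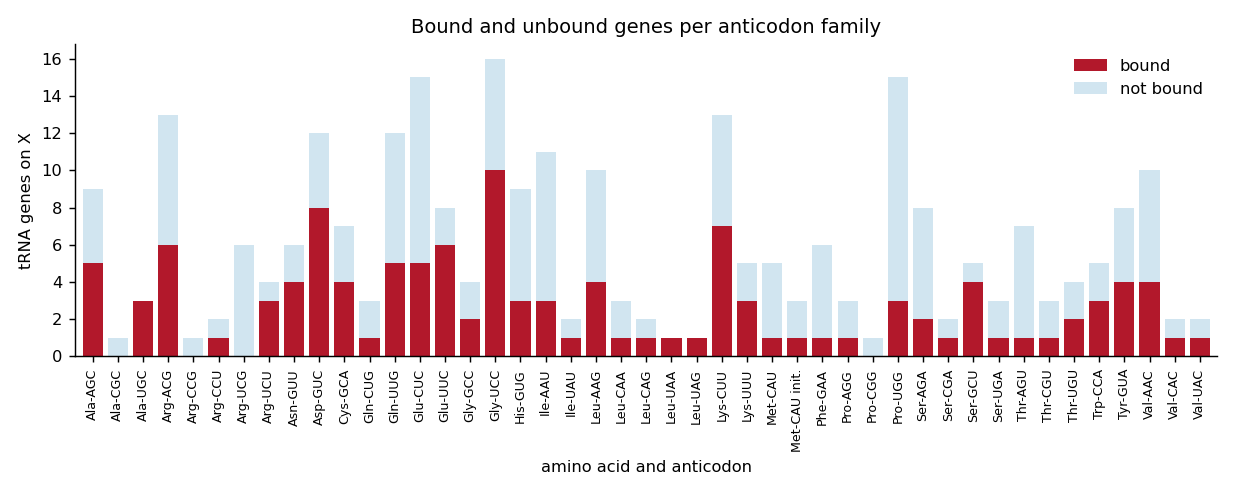
Number of tRNA genes on X (vertical axis) in each of the 45 families of amino acid and anticodon (horizontal axis, anticodon written as RNA; init. marks the initiator methionine tRNA). The dark part of each bar is the bound genes and the light part the unbound ones. The largest family, glycine UCC, had 10 of 16 bound, and proline UGG had 3 of 15.

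The tryptophan genes, described in full after their values were seen, include those known from amber suppressor alleles. sup-7 had the highest signal of them, 106.3, with 47.3 in replicate 1 and 59.8 in replicate 2, or 53.5 ± 8.85 (mean and SD, n = 2), and it lies in an intron of C03B1.2. sup-33 was bound with 69.2, with 35.6 and 32.8, and rtw-5 with 63.1, with 30.3 and 35.8. sup-28 was not bound; its ranked signal was 48.5, with 33.1 and 15.9. sup-21 was not bound either, and had 23.8, with 19.6 and 12.8. In each replicate sup-7 was the highest of the 5 and sup-21 the lowest. sup-28 and sup-33 both lie in introns of trk-1.

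Among the other amino acids, the strongest genes were F38G1.t2 for aspartate in egl-17 with 108.8, F42D1.t1 for cysteine with 105.1 and T28B4.t1 for phenylalanine in fbxl-4 with 103.8. T28B4.t1 was the single bound gene of phenylalanine, with 62.0 and 42.7 in the replicates. F41D9.t3 for asparagine had 101.0, R04D3.t2 for valine 99.95, C42D8.t1 for isoleucine 98.2 and H08J11.t3 for glutamine 95.6. C02F12.t1 for elongator methionine had 93.0, with 47.5 and 48.0, and C06G1.t1 for histidine had 88.2, with 38.1 and 59.5. C53C7.t1 for serine had 114.4 on a peak shared with C53C7.t2, and C16B8.t1 was the strongest proline gene with 85.0.

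Genes of identical sequence often differed in their call. The 276 genes have 106 distinct sequences, and 203 genes belong to 33 sets of 2 or more copies on X. In 30 of these sets some copies were bound and others were not, in 2 all were bound and in 1 none was. With 43.5% of all 276 genes bound, larger sets would often be mixed whatever their sequence. The number of mixed sets was not tested against that share. The 2 sets bound throughout were the alanine UGC genes above and the arginine UCU pair F41D9.t4 and C11G10.t1. Bound genes made up 93 of the 203 genes with a copy on X (45.8%) and 27 of the 73 without (37.0%).

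The threonine AGU family has 7 genes with 1 sequence, and ZK563.t1 was the single bound one, with 152.8. Its copies had ranked signals of 65.7 at F25F6.t2, 45.1 at F43E12.t1, 39.9 at K08H2.t1, 30.8 at R04D3.t5, 22.6 at R11B5.t1 and 14.5 at R04D3.t1. F25F6.t2 had 35.5 and 30.0 in the replicates, below the 54.9 and 90.2 of ZK563.t1 in both. The largest set was proline UGG, with 13 copies on X, of which C16B8.t1, ZK899.t1 and H06A10.t1 were bound. C16B8.t1 had 31.5 and 54.6 in the replicates, and its unbound copy F46G11.t2 had 28.5 and 60.6, so that the replicate values of this bound and this unbound copy lie close together.

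M02F4.t1 belongs to a set of 11 identical glycine UCC genes on X, 7 of them bound. Its unbound copies were ZK154.t4, R04E5.t4, R04E5.t2 and T10B10.t1. R04E5.t4 had a ranked signal of 50.3 and R04E5.t2 one of 17.3, and the other two had no ranked peak over both replicates. T10B10.t1 had 44.3 in replicate 1 and 13.3 in replicate 2, and the nearest main summit lay just past the limit of 100 bases.

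Reads that fit several copies are a possible limit at such genes, and the authors' treatment of them was not given in the sources used here. Around every gene, the share of 50-base words that occur once in the genome was computed in a 256-base window. The median share was 83.3% at bound and 83.6% at unbound genes, and 83.1% at the 61 genes with no ranked peak. Shares under 50% were found at 6 genes, none of them bound. The part of mapping in the calls was not tested.

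Many tRNA genes of X lie in clusters. Genes no more than 5000 bases apart were joined, which gave 67 clusters of 2 or more with 179 genes, and 97 genes alone. A bound gene was present in 47 clusters; in 14 of them every gene was bound, and in 33 only some. In 20 clusters none was. Clusters were often of 1 kind: 30 held a single anticodon family.

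The share of bound genes was 50.5% among genes alone (49 of 97, 95% interval 40.2 to 60.8%) and 50% in pairs (41 of 82). It was 33.3% in clusters of 3 (17 of 51, 95% interval 20.8 to 47.9%) and 28.3% in those of 4 or more (13 of 46, 95% interval 15.99 to 43.5%). The intervals of lone genes and of the largest clusters overlap narrowly, and genes of a cluster are not independent. The median unique share was 81.6% in the clusters of 4 or more and 83.6% at lone genes. Of the 9 clusters of 4 or more genes, 6 had exactly 1 bound gene.

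**Figure D4:**
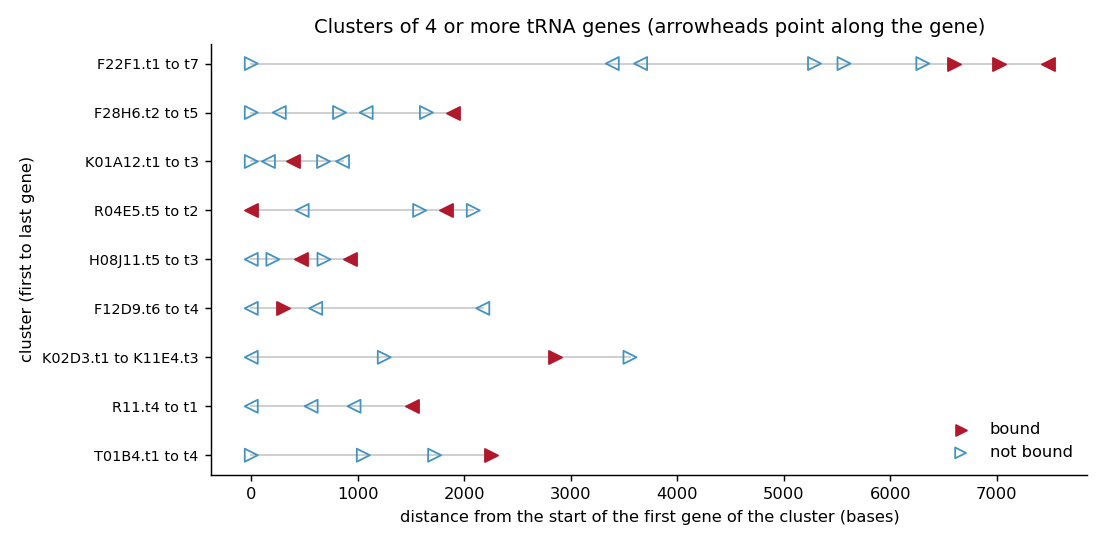
The 9 clusters of 4 or more tRNA genes on X, 1 per line, with each gene at its distance in bases from the start of the first gene; arrowheads point along the gene. Filled arrowheads are bound and open ones unbound. Bound genes number 1 to 3 in each cluster, and 6 clusters have 1.

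The largest cluster, F22F1.t1 to F22F1.t7, has 9 genes in 7552 bases. The 3 bound genes stand together at its right end: F22F1.t5 for aspartate with 52.5, F22F1.t6 for initiator methionine with 91.1 and F22F1.t7 for isoleucine with 72.6. F22F1.t6 had 41.3 and 49.0 in the replicates. Of the 6 unbound genes, all for aspartate or serine, F22F1.t2 had the highest ranked signal, 49.1, while F22F1.t3 and F22F1.t4 had no ranked peak over both replicates. The unique share was 87.0, 82.1 and 81.6% at the 3 bound genes, and from 67.1 to 80.2% at the 6 unbound ones. Whether repeated sequence had a part in the calls here was not tested.

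The second cluster, of 6 identical histidine genes at F28H6, had 1 bound member, F28H6.t5, with 61.3 and replicate values of 33.8 and 24.3. This is also the place with the least unique sequence: the unique share was 60.9% at F28H6.t5 and 0% at F28H6.t3 and F28H6.t4, where no word of this length is unique. F28H6.t2, with a unique share of 76.8%, had no ranked peak. Whether repeated sequence had a part in the calls of this cluster was not tested.

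In the cluster in K01A12.3, with 3 cysteine and 2 arginine genes within 930 bases, K01A12.t4 was bound with 99.0, and 62.6 and 48.4 in the replicates. Its summit lay 109 bases from the gene's 5′ end, beyond the gene and 125 bases from the nearest end of K01A12.t5. The 5 glutamine genes in introns of ajm-1, a gene of apical junctions, had 2 bound members, H08J11.t3 with 95.6 and H08J11.t4 with 55.8. R11.t1 was bound with 127.1 while its 3 identical tyrosine neighbours were not, and T01B4.t4 with 99.6 while its 3 identical valine neighbours were not. These last clusters were picked after their values were seen.

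A main summit lay within 500 bases of 26 of the 156 unbound genes, and within 5000 bases of 64. The other unbound genes had none within that distance.

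Genes inside introns of coding genes and genes outside them were bound at similar shares. Outside coding genes 77 of 180 were bound (42.8%, 95% interval 35.4 to 50.4%), and in introns 42 of 95 (44.2%, 95% interval 34.0 to 54.8%). C28G1.t1, a glutamate gene that overlaps an exon of C28G1.2, was bound with 103.7. Among intronic genes 20 of 50 on the host's strand and 22 of 45 on the opposite strand were bound. The median signal of bound genes was 82.9 in introns and 76.3 outside coding genes. Of the genes outside coding genes, those with a coding gene start within 500 bases were bound in 10 of 20 cases and the rest in 67 of 160.

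The summits lay inside the tRNA gene in most cases. Of the 120, 89 were inside the gene (74.2%), 21 before it and 10 after it. Counted along the gene's strand from its 5′ end, the median position was 27 bases, with quartiles at 8 and 40.25 and a range from -98 to 155. The gene itself has a median length of 72 bases. The median was 34.5 bases in introns and 24 outside coding genes, 27 both at lone and at clustered genes, and 20 at the 135 bound autosomal tRNA genes. In the replicates' own ranked lists it was 24.5 in replicate 1 and 25 in replicate 2. Every peak at a bound gene was 256 bases wide with the summit at its centre, so a peak covers more than the gene, and differences of a few bases are small against that width.

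**Figure D5:**
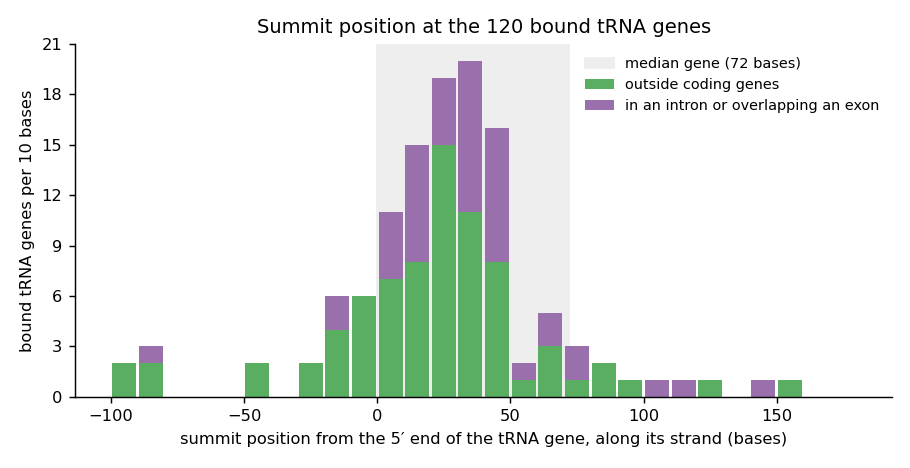
Number of bound tRNA genes of X (vertical axis) by the position of the summit from the 5′ end of the gene, along its strand, in steps of 10 bases (horizontal axis). Colours separate genes outside coding genes from those in an intron or overlapping an exon, and the grey band is a gene of the median length of 72 bases. Summits gather within the first part of the gene, with a median at 27 bases.

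Of the 6 peaks that served 2 genes, 4 lay between divergent genes, 1 between convergent genes and 1 between genes on the same strand. Just inside the limit of 100 bases were F15G9.t2 at 86, C53C7.t1 at 88, R03E1.t2 at 89, M02F4.t2 at 94 and C28G1.t2 at 98. Just outside were ZK154.t2 at 104, T10B10.t1 1 base further, K01A12.t5 at 125, C16B8.t3 at 126 and H35N09.t1 at 139. The 5 genes just inside all shared their peak with a nearer partner.

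The B box letters were found at nearly the same share in bound and unbound genes. The B box pattern GTTCNANNC was found in 268 of the 276 genes, starting at a median of 52 bases from the 5′ end, in 97.5% of bound and 96.8% of unbound genes. In windows of the same length taken 100 bases before each gene, 2.17% held it on either strand. The 3 bound genes without it were F22F1.t6 with 91.1, C16B8.t2 for proline with 61.7 and K11E4.t2 for lysine with 51.9. The shorter core GTTCGA, which lies within many of the same matches, was in 72.5% of bound and 72.4% of unbound genes. A simple A box pattern, TNGNNNAG within the first 20 bases, was in 74.2% and 75%, and in 9.42% of the windows before the genes on either strand.

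A run of 4 T began within 20 bases after 273 of the genes, among them all 120 bound ones, and was in 25% of windows of that size placed 300 bases further on. The 3 genes without the run were unbound and had no ranked peak. At the 117 bound genes with a B box match, the summit lay before the first letter of the match at 99 and at or past it at 18, with a median of -24 bases. These values use the first match in a gene. In 7 genes the pattern occurs 2 times, among them all 5 tryptophan genes, which have it from base 25 and again from base 52. Counted from the last match, the summit lay before it at 101 and at or past it at 16, with a median of -26 bases. A match is a description of letters and does not show which factor stood on the gene.

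Along the chromosome, cut into 6 stretches of equal length, tRNA genes were most frequent in the fifth, with 68 genes, and fewest in the first, with 24. The bound shares were 37.5, 51.9, 48.3, 48.9, 47.1 and 26.0% from the left end to the right end. The right end stretch had 13 of 50 bound (95% interval 14.6 to 40.3%), and the neighbouring one 32 of 68 (95% interval 34.8 to 59.6%). It includes the R11, T01B4 and Y7A5A genes. The median signal of its bound genes was 76.3, close to the 77.6 of all bound genes.

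Genes with an intron of their own were few: 12 of the 276 are annotated with 2 exons, for tyrosine, leucine and isoleucine, and 6 of them were bound. Their signals ran from 59.1 to 155.2, and C04A11.t1, C02B4.t2 and R11.t1 were the highest.

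Among 12 genes of the RNA polymerase III machinery, listed for their role and matched in the annotation, 1 had a main summit between 1000 bases before and 200 bases after its start. Over all 19973 protein-coding genes the share with such a summit was 1.94%, so a single gene of 12 says little about the list. The gene was rpac-19, which encodes a subunit shared by RNA polymerases I and III, with 67.0. The others, which include genes of TFIIIC and TFIIIB subunits, had none.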

How the data were processed

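ChIP-seq peak lists of 2 biological replicates of 1 group were used. The group and replicate numbers come from the sample descriptions. Per the labels and their text records, the authors called peaks on ce11 from filtered alignments and 1 control alignment, for each replicate and for both together. Aligner, peak caller and versions were not given in the sources used here. Deposited lists give each peak a summit, a signal value from the authors, and a score of up to 1000 that follows the IDR. The ranked lists deposited by the authors also give the −log10 of the global IDR. The main list held 1046 peaks. Of the ranked lists over both replicates, the one that contains every main-list peak was used, with 103220 peaks. The other ranked list over both replicates was not used. The lists hold no read counts, so the depth is unknown and precision rests on the 2 replicates.

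From these, summits (peak start plus the deposited offset) were assigned to tRNA genes of Ensembl release 115 within 100 bases, keeping the peak of highest signal. Peak ends fell within the WBcel235 chromosome lengths. Ranked peaks were assigned in the same way, so neighbouring genes can share a peak. Sequences came from the RefSeq genome of the same assembly. Anticodons were read from a loop of 7 bases closed by at least 4 of 5 stem pairs, given the amino acid that RefSeq annotates. Shares have exact 95% Clopper-Pearson intervals. No test between groups was possible with 1 group, and none over genes was made. The peak assignment was checked on simulated data. Alternatives were other distances, overlap of intervals, other lists, the upper 50% of peaks, single replicates, other cluster gaps and a shorter B box pattern, and, added after seeing the data, the last B box match in a gene.

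Members and lists were chosen with earlier results of these data known. Genes were named by rule: the 8 with the highest signal, the 3 weakest bound, the 3 unbound with the highest ranked signal, the 3 bound with the largest replicate ratio, the strongest of each amino acid, the members of the 3 largest clusters (F22F1, F28H6 and, of several with 5 genes, K01A12), and the strongest gene with an unbound copy. Columns of per-sample values left unused numbered 0. Python 3.11.15, NumPy 2.4.6, pandas 2.3.3, SciPy 1.17.1 and matplotlib 3.10.9 were used.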

Additional observations from a re-analysis of the deposited data

How the results depend on the processing

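Of 60 recomputed values, 39 stayed close to those reported and 21 moved. Counts and medians were judged by unlike rules. For counts a wide ratio was allowed, so 89 bound genes against 120 counted as close. For medians the limit was the SD between replicates, so a median signal of 76.6 against 77.6 counted as moved. No paired analysis was possible because there is 1 group. The number of bound genes ran from 89 (summit inside the gene) to 134 (within 250 bases) over the alternatives that keep both replicates. It was 120 again in ranked peaks with an IDR of at most 0.01. Those peaks include every main-list peak, so this setting could add bound genes but not remove any, and it added none. Its values are among the 39. In the list of 1 replicate alone the number of bound genes was 52 without replicate 1 and 61 without replicate 2. The same holds for intronic genes (20 and 22, against 42), genes outside coding genes (31 and 38, against 77), clusters with a bound member (23 and 27, against 47) and bound genes with the B box pattern (51 and 60, against 117). The thresholded lists of replicates 2 and 1 hold 329 and 350 peaks, against 1046. These are fewer than the ranked peaks with an IDR of at most 0.01, which number 422, 455 and 1181, and why the others were dropped is not stated. The number of bound genes with the B box pattern was 117 also with the last match in a gene. That count could not differ, because every gene with a first match also has a last one. It is included among the 39 but is no check of the result.

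The median signal of bound genes, 77.6, was 78.5 for summits inside the gene, 76.6 within 250 bases, 80.1 in the conservative list and 84.7 in the upper 50% of peaks. It was 50.05 and 49.0 in the single-replicate lists, which have their own scale. The median summit position, 27 bases, was 28, 26.5 and 26 for summits inside the gene, overlapping intervals and the upper 50% of peaks, and 18.5 and 19 in the single-replicate lists. Both medians were set against the small SD between replicates, 0.261 for signal and 0.354 bases for position.

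With 2 replicates and no read counts, a gene that was not bound is one without a summit of the main list within 100 bases. Some of these genes are in other lists of the authors or have a main summit just past that distance, and none is shown to lack the protein.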

Other observations

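Some tRNA genes of X outside the 120 were named by another of the authors' lists. There were 11, of which 8 were in the list of 1 replicate alone and 4 in the conservative list, with F46G11.t2 for proline in both kinds. In the list of replicate 1 were F32A6.t1 for phenylalanine, C03F11.t1 for elongator methionine, R04D3.t3 for proline, T10B10.t1 for glycine and C30E1.t1 for glycine. Their signals in that replicate were 37.9, 35.0, 33.8, 44.3 and 42.6. In replicate 2, C03F11.t1 had 12.4 and T10B10.t1 had 13.3, and F32A6.t1, R04D3.t3 and C30E1.t1 had no ranked peak. K01A12.t5 for cysteine and F39B1.t1 for valine were in the list of replicate 2, with 48.4 and 45.1, and neither had a ranked peak in replicate 1. The peak of K01A12.t5 in replicate 2 is the one that also served K01A12.t4. Y59E1B.t2 for proline, the only gene of anticodon CGG on X, was in the conservative list with a ranked signal of 60.3. F25F6.t2 for threonine and F52E10.t5 for glutamate were the other two of that list.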
